A study of Rattus norvegicus with 4 samples.

Results

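The miR-23, miR-27 and miR-24 clusters are a pair of related microRNA clusters, here called a and b, and their members were taken as every name in the deposited tables that begins with miR-23a, miR-23b, miR-27a, miR-27b or miR-24-. This gave 11 names of 762 in the table of all 4 libraries and the same number of 594 in the PC12 table. Of these, 5 are the abundant 3p arms (rno-miR-23a-3p, rno-miR-27a-3p, rno-miR-23b-3p, rno-miR-27b-3p and rno-miR-24-3p, written below without the rat prefix) and 6 are the 5p arms of the same hairpins. In the table of all 4 libraries 8 of the 11 names passed the minimum of a mean linear value of 10, as did 278 of the 762 names. The names miR-23a-5p, miR-24-1-5p and miR-24-2-5p did not.

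MicroRNA was sequenced from extracellular vesicles (EVs), the membrane particles that cells shed, of rat cell lines in culture. PC12, a line from a pheochromocytoma that makes catecholamines, gave 1 library titled EVu and 1 titled EVd, and the labels do not say what u and d stand for. RMT1 cells, labelled as breast cancer cells, gave 2 libraries, and their vesicles were collected by ultracentrifugation. No treatment or genotype is labelled. Whether separate RMT1 cultures were used is not stated, so a p-value reflects just the spread of these samples, possibly a technical one, and a batch of preparation and the cell line cannot be told apart.

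A microRNA pairs with messenger RNAs through its seed, bases 2 to 8 counted from its 5′ end, and lowers their translation and stability. Each cluster is transcribed as a common precursor RNA that is cut into hairpins for a miR-23, a miR-27 and a miR-24, and each hairpin gives a 5p and a 3p arm, of which usually only 1 is kept in quantity. miR-23 and miR-27 are known from endothelial cells, where they act on vessel sprouting; miR-27 is also known to repress adipocyte differentiation and lipid genes such as Pparg; and miR-24 is known to restrain proliferation. The a and b forms of a family share a seed and hence most of their predicted targets, but they are made from different genes.

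In the PC12 table the a cluster lies on chromosome 19 from 36294779 to 36295132 and the b cluster on chromosome 17 from 816055 to 816845, both given on the plus strand of a build that the table does not name. The same table places miR-24-3p at both loci, so its counts cannot be divided between the clusters. In the rat assembly GRCr8 the hairpin of miR-23b lies within the span of Aopep, an aminopeptidase gene on the same strand, while the miR-23a hairpin has no such host in the RefSeq annotation.

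The mature 3p sequences are shown because the a and b forms differ so little. They are from RefSeq (GRCr8), read 5′ to 3′, and the seed is in capitals.
miR-23a-3p: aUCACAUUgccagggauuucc
miR-23b-3p: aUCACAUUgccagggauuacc
miR-27a-3p: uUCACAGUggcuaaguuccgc
miR-27b-3p: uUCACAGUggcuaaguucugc
miR-24-3p: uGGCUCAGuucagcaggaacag

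The miR-23 pair differed at 1 base, written from the a to the b form as U19A, and the miR-27 pair at 1 base, C19U, with positions counted from the 5′ end. Both differences lie outside the seed. Among 693 mature rat names in the RefSeq table, no name outside the members carried the seed of miR-23, miR-27 or miR-24-3p. Because the a and b forms are told apart by 1 base near the 3′ end, their split in the counts is uncertain. The sum over a pair does not need that base, but it still differed between the tables, at 2917 and 3633 counts in EVu for the miR-23 pair and 14364 and 15457 for the miR-27 pair, in the table of all 4 libraries and the PC12 table.

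The hairpins of miR-27 are shown because their 5p arms differ more than their 3p arms do, which gives a separate reading of the clusters. Both lie on the minus strand of GRCr8, Mir27a at chr19:40859603-40859689 and Mir27b at chr17:1819147-1819243, and the capitals mark the 5p and then the 3p arm.
Mir27a: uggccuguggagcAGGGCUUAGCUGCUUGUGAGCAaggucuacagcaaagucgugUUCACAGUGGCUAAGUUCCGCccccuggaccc
Mir27b: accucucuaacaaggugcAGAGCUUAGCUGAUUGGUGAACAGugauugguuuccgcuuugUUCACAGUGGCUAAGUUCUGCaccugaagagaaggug

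Likewise the 5p arms of miR-24 name their own cluster, unlike miR-24-3p. The seed is again in capitals, and they differ at 5 bases, A17U, C19U, A20C, G21A and U22G from the a form to the b form.
miR-24-2-5p (a cluster): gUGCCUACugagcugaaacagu
miR-24-1-5p (b cluster): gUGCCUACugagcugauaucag

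The libraries held 436840 counts for EVu, 338233 for EVd, 799224 for RMT1 EV 1 and 716940 for RMT1 EV 2 in the table of all 4 libraries, and 512244 and 386957 for EVu and EVd in the PC12 table. The tables give different counts for the same PC12 libraries, so both are used below. The RMT1 libraries differed from each other by more than sampling noise (chi-square of 6.84 per degree of freedom over 177 names) and were counted as 2 samples. All 7 epithelial marker microRNAs, such as the miR-200 family, summed to 12109 and 11709 CPM (counts scaled by the library total) in RMT1 against 213 and 201 in EVu and EVd. The neuroendocrine pair miR-375-3p and miR-7a-5p summed to 22434 and 20938 CPM in EVu and EVd against 1485 and 1576 in RMT1, where miR-375-3p was at 0. Let-7 names took 68.9% and 68.6% of RMT1 counts against 22.9% and 21.5% of EVu and EVd, a gap that bears on every share given below, and its part in the results was not tested.

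The b cluster separated the cell lines by far more than the a cluster. miR-27b-3p was the leading member of PC12 vesicles and next to last among the main arms in RMT1 vesicles: EVu held 13599 counts of it and EVd 14295, whereas the RMT1 libraries held 90 and 74. These are 3.11% and 4.23% of the PC12 counts against 0.0113% and 0.0103% of the RMT1 counts, which placed it 10th and 8th among the names detected in PC12 and 101st and 105th in RMT1. No PC12 library came near an RMT1 library. Pooled over the libraries of a line, its share was 333-fold higher in PC12 (exact binomial 95% interval 285 to 390). All intervals here are exact binomial ones at 95% (Clopper-Pearson) and cover counting error only, with no term for the spread between libraries. It is not stated whether counts are molecules, so even the counting error is uncertain.

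miR-23b-3p, the partner of miR-27b-3p on the same precursor, was low in RMT1 as well. It had 1751 and 1629 counts in EVu and EVd against 51 and 56 in RMT1, or 0.401% and 0.482% against 0.00638% and 0.00781%. The groups again did not overlap, and the pooled share was 61.8-fold higher in PC12 (51.0 to 75.6). Together the b cluster pair held 226-fold more of PC12 than of RMT1 counts (200.3 to 255).

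The a cluster members were present at similar counts in all libraries. miR-23a-3p had 1166, 1294, 1247 and 1227 counts in EVu, EVd, RMT1 EV 1 and RMT1 EV 2, which are shares of 0.267%, 0.383%, 0.156% and 0.171%. miR-27a-3p had 765, 1159, 802 and 733 counts, or 0.175%, 0.343%, 0.1003% and 0.102%, in the same order. By share both were higher in each PC12 library than in each RMT1 library, by 1.95-fold (1.84 to 2.06) for miR-23a-3p and 2.45-fold (2.29 to 2.62) for miR-27a-3p when pooled. These differences depend on the scaling, as described with the fits below.

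miR-24-3p, which both clusters encode, went the other way. Its counts were 2238 in EVu, 2544 in EVd, 7814 in RMT1 EV 1 and 7566 in RMT1 EV 2, or 0.512%, 0.752%, 0.978% and 1.06% of each library. It ranked 37th and 30th in EVu and EVd and 14th and 13th in RMT1. Both RMT1 libraries lay above both PC12 libraries, with a pooled share 1.64-fold higher in RMT1 (1.59 to 1.70). In RMT1 the mean ± SD was 1.02% ± 0.0549 for miR-24-3p, 0.164% ± 0.0107 for miR-23a-3p, 0.101% ± 0.00134 for miR-27a-3p, 0.0108% ± 0.000664 for miR-27b-3p and 0.00710% ± 0.00101 for miR-23b-3p (SD, n = 2 each).

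**Figure D1:**
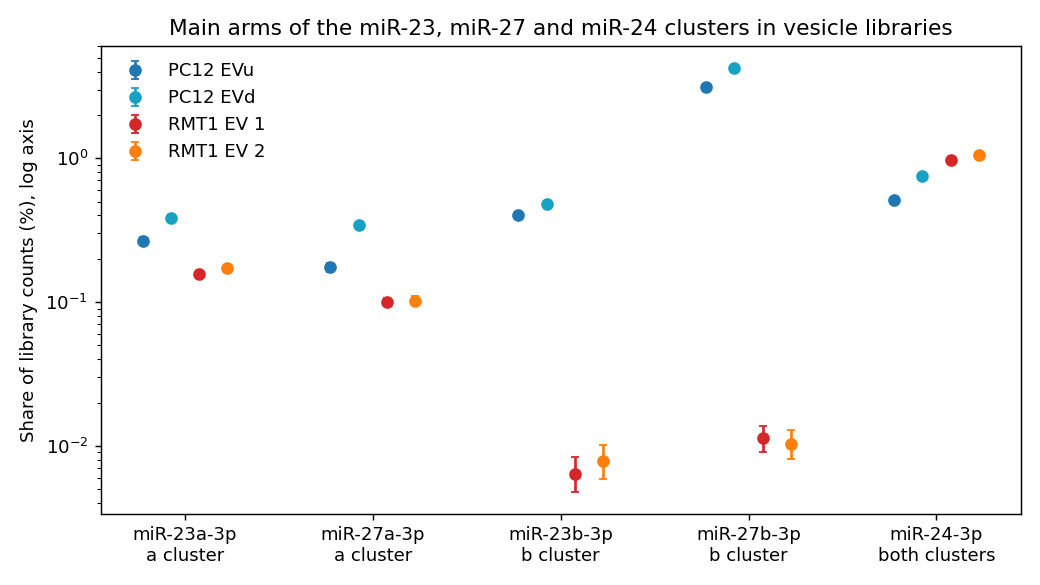
Share of library counts in percent, on a log axis, of the 5 main arms in the 4 vesicle libraries of the table of all 4 libraries; bars are exact binomial 95% intervals. The RMT1 points of miR-23b-3p and miR-27b-3p lie near 0.01%, far below the PC12 points, whereas those of miR-24-3p lie above them.

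The order of the members therefore differed between the lines. In EVu and EVd it ran from miR-27b-3p through miR-24-3p, miR-23b-3p and miR-23a-3p to miR-27a-3p, and in both RMT1 libraries from miR-24-3p through miR-23a-3p, miR-27a-3p and miR-27b-3p to miR-23b-3p. Neighbours in this order differed beyond counting error except miR-27b-3p and miR-23b-3p in RMT1 EV 2, at a ratio of 1.32 (0.921 to 1.90). In the PC12 table of the same PC12 libraries, miR-24-3p and miR-23b-3p could not be ordered in EVu (ratio 1.06, 0.998 to 1.12), nor could miR-23a-3p and miR-27a-3p (1.05, 0.970 to 1.13). There miR-27a-3p stood above miR-23a-3p in EVd.

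The sums over a family do not rest on the 1-base difference. The miR-27 family, miR-27a-3p plus miR-27b-3p, held 34.3-fold more of PC12 than of RMT1 counts (32.7 to 36.1), and the miR-23 family 4.43-fold more (4.22 to 4.64). The 5 main arms summed to 4.47% of EVu, 6.185% of EVd, and 1.25% and 1.35% of the RMT1 libraries. In bulk RNA of vesicles, fewer vesicles that carry a microRNA and fewer copies per vesicle cannot be told apart.

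The ratio of a to b forms compares members within a library and so does not depend on the scaling between libraries. miR-27a-3p was 5.33% of its pair in EVu (4.96 to 5.71) and 7.50% in EVd (7.09 to 7.93), but 89.9% in RMT1 EV 1 (87.7 to 91.8) and 90.8% in RMT1 EV 2 (88.6 to 92.7). The pair was thus mostly b form in PC12 and mostly a form in RMT1. miR-23a-3p made up 40.0% (38.2 to 41.8) and 44.3% (42.5 to 46.1) of its pair in EVu and EVd, against 96.1% (94.9 to 97.1) and 95.6% (94.4 to 96.7) in the RMT1 libraries. In the PC12 table the values were 8.37% and 10.01% for miR-27a-3p and 37.3% and 41.9% for miR-23a-3p, outside the counting intervals above yet still far from the RMT1 values.

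**Figure D2:**
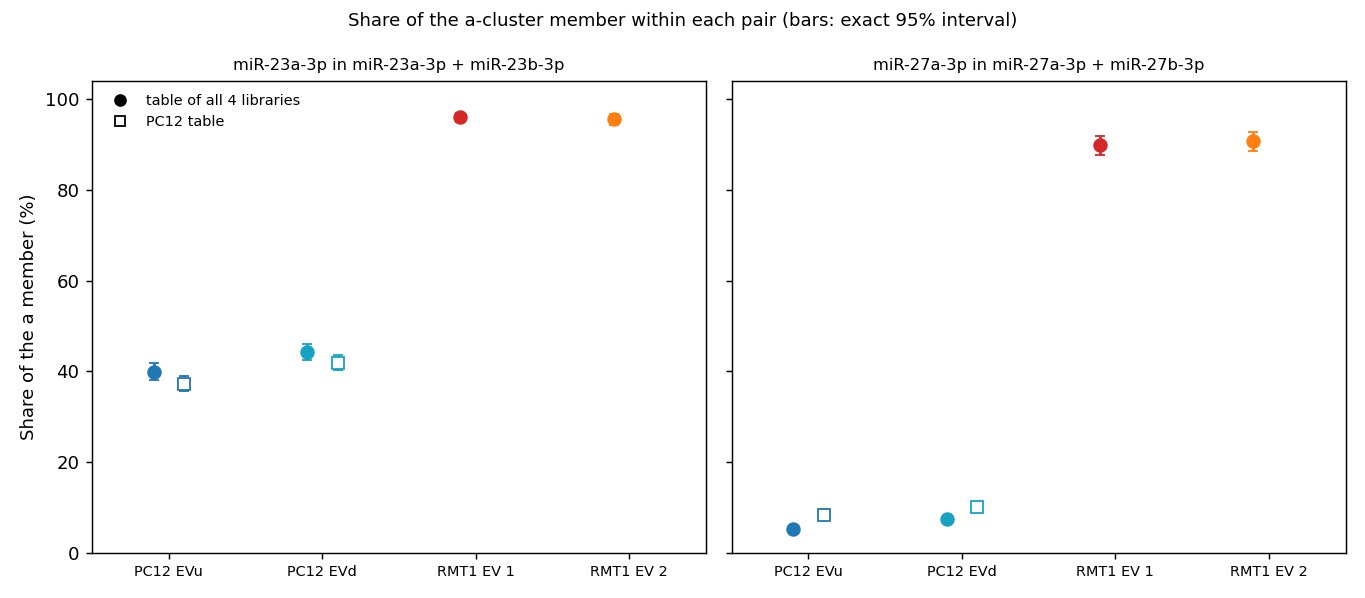
Share of the a form in percent within the miR-23 pair (left) and the miR-27 pair (right) in each library; circles are the table of all 4 libraries, open squares the PC12 table, and bars exact binomial 95% intervals. The RMT1 points lie between 89.9% and 96.1%, and the PC12 points lie below 45% for miR-23a-3p and near or below 10% for miR-27a-3p.

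The log2 ratio of miR-27a-3p to miR-27b-3p was -4.15 in EVu, -3.62 in EVd, 3.16 in RMT1 EV 1 and 3.31 in RMT1 EV 2. The groups did not overlap, and the difference between cell lines was 7.12 ± 0.11 (limma SE; adjusted p = 0.00805), a 139-fold change in the ratio. For miR-23a-3p to miR-23b-3p the ratios were -0.59, -0.33, 4.61 and 4.45, with a difference of 4.99 ± 0.10 (limma adjusted p = 0.00870), or 31.8-fold. With PC12 table counts for EVu and EVd, the difference was 6.53 for the miR-27 pair and 5.12 for the miR-23 pair. Only the RMT1 pair supplies a spread to this fit, so the SE holds no spread among PC12 libraries. An exact two-sided permutation test over the 4 libraries gave p = 0.333 for each of the 8 member ratios compared, adjusted p = 0.333, which is the smallest that 2 libraries against 2 allow.

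Such differences in paralog ratio were common in these libraries. Of the 55 pairs of lettered paralogs with the same number and arm in the table, 58.2% were called at an adjusted p of 0.05, so the calls of both 3p pairs are not particular to these clusters. In size the miR-27 pair was 4th and the miR-23 pair 15th of the 55. Among the 23 pairs with at least 10 counts in every library of both names, 78.3% were called. There the miR-27 pair had the largest difference, ahead of miR-29a-3p to miR-29c-3p at 6.74, with the miR-23 pair next at 4.99. Most of these 23 pairs are combinations within the miR-30 family. Names recur in several pairs, among the 55 as well, so the pairs are not independent.

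**Figure D3:**
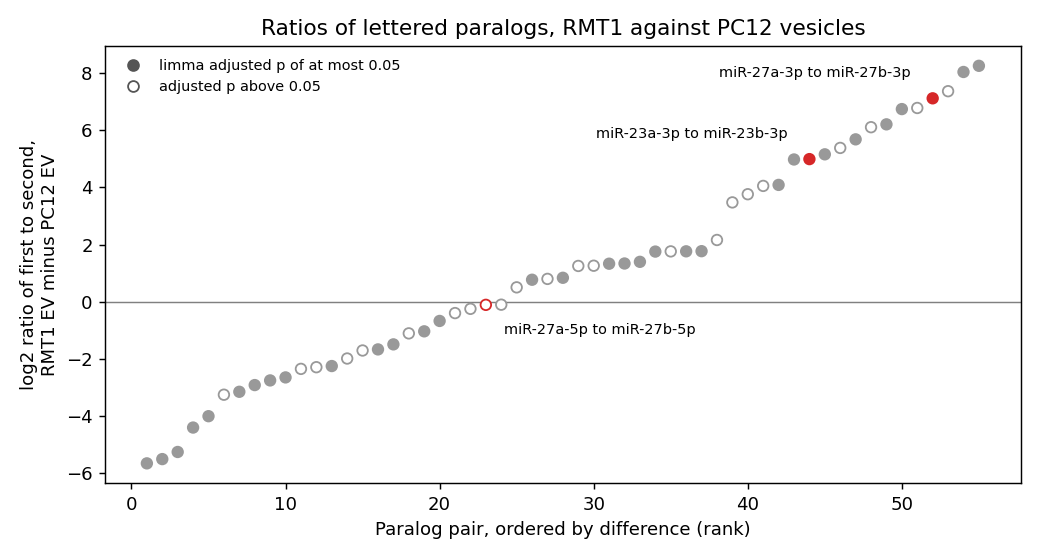
Difference between RMT1 and PC12 vesicles in the log2 ratio of each of 55 pairs of lettered paralogs, ordered by size; filled points have a limma adjusted p of at most 0.05 and members are red. The miR-27a-3p to miR-27b-3p pair lies at 7.12, the miR-23a-3p to miR-23b-3p pair at 4.99 and the miR-27a-5p to miR-27b-5p pair near 0.

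Ratios within a cluster showed how far members of 1 precursor kept together. In the a cluster, miR-23a-3p to miR-27a-3p was 1.52 in EVu, 1.12 in EVd, 1.55 in RMT1 EV 1 and 1.67 in RMT1 EV 2, with both RMT1 values just above the PC12 values. In the b cluster miR-27b-3p exceeded miR-23b-3p by 7.77-fold and 8.78-fold in EVu and EVd but only by 1.76-fold and 1.32-fold in RMT1. miR-27b-3p thus differed between the lines by more than its partner did. The ratio of the a cluster pair to the b cluster pair differed by 6.73 on the log2 scale, or 106-fold, with the same exact permutation p = 0.333.

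miR-24-3p did not keep its ratio to either partner family. Relative to the miR-23 family it was at 0.767 in EVu, 0.870 in EVd, and 6.02 and 5.90 in RMT1. Relative to the miR-27 family it was at 0.156, 0.165, 8.76 and 9.38, in the same order. Even set against miR-23a-3p alone, its partner in the a cluster, it was at 1.92 and 1.97 in EVu and EVd and at 6.27 and 6.17 in RMT1.

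The 5p arms of miR-27 gave a different picture from the 3p arms, at very low counts. miR-27b-5p had 6, 5, 12 and 9 counts and miR-27a-5p 12, 8, 27 and 11 in EVu, EVd, RMT1 EV 1 and RMT1 EV 2. The log2 ratio of miR-27a-5p to miR-27b-5p differed between the lines by -0.11 ± 0.47 (limma SE; adjusted p = 0.838), and the sign of this difference is not stable because it turns positive in the PC12 table (0.44), without RMT1 EV 2 (0.33) and without EVu (0.052). Its counts allow wide limits in each library: miR-27a-5p made up 66.7% of the pair in EVu (41.0 to 86.7) and 69.2% in RMT1 EV 1 (52.4 to 83.0).

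Within the miR-27b hairpin the 5p arm took 0.0441% of arm counts in EVu (0.0162 to 0.0960) and 0.0350% in EVd (0.0114 to 0.0816). In RMT1 it took 11.8% (6.23 to 19.6) and 10.8% (5.08 to 19.6). The log2 ratio of 5p to 3p, with 1 count added to each arm, was 8.21 higher in RMT1. This was the 2nd largest shift among 70 hairpins whose arms both had a mean linear value of at least 10. Shifts between arms were widespread, since 58.6% of those hairpins moved by at least 4-fold in either direction. miR-27b-5p passed that minimum only through RMT1, the line where its share of the hairpin was high, so the rank carries no weight. By share of library counts miR-27b-5p itself was at a pooled ratio of 0.976 in RMT1 over PC12 (0.450 to 2.24). In the PC12 table the 5p share was 0.134% and 0.0967%, above the other table but still under 1%. The shift of the miR-27a hairpin was 1.06. None can be measured for miR-23b, whose 5p arm had 0 counts in both RMT1 libraries.

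The remaining 5p arms were close to the limit of detection. miR-23b-5p had 21 and 11 counts in EVu and EVd and 0 in RMT1. Against a floor of 3 counts over RMT1, its pooled PC12 share was 20.9-fold higher. That figure leaves out the counting error of EVu and EVd, so it is not a lower limit. It also takes the RMT1 zeros of miR-23b-5p at face value, and they come from the table of all 4 libraries alone. miR-23a-5p had 3, 0, 3 and 9 counts in the table of all 4 libraries but 84 and 128 in EVu and EVd in the PC12 table, so its PC12 level is not settled. miR-24-1-5p and miR-24-2-5p had 0 counts in every library of the table of all 4 libraries. The PC12 table, however, listed 11 and 3 counts of miR-24-1-5p and 13 and 14 of miR-24-2-5p in EVu and EVd. A zero for these names in the table of all 4 libraries therefore sets no upper limit on their share. This holds for RMT1 too, whose zeros come from that table alone. The arms that would name the source of miR-24-3p were therefore too few to divide it between the clusters. miR-3074, made from the strand opposite the miR-24-1 hairpin, had 0 counts in EVu, EVd and RMT1 EV 1 and 2 counts in RMT1 EV 2 in the table of all 4 libraries, but 12 and 10 in EVu and EVd in the PC12 table.

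On the authors' log2 scale, which is set over all 4 libraries, miR-27b-3p was lower in RMT1 by -6.90 ± 0.04 (limma SE; adjusted p = 0.00217) and miR-23b-3p by -4.47 ± 0.26 (adjusted p = 0.0212). miR-24-3p was higher by 2.20 ± 0.16 (adjusted p = 0.0274), though without RMT1 EV 2 the adjusted p was 0.0544. miR-23a-3p, at 0.53 ± 0.17 (adjusted p = 0.148), and miR-27a-3p, at 0.22 ± 0.11 (adjusted p = 0.249), did not pass. The call was made for 5 of the 8 members tested, 2 higher and 3 lower, or 62.5% against 70.1% of all 278 names, so their number is near the background. The lower calls include miR-23b-5p, which passed the minimum only through PC12 and so had to differ. The higher calls include miR-27b-5p, which passed it only through RMT1, the line where it was called higher. By direction 33.1% of all names were called higher and 37.1% lower, that is 92 against 103, a split that becomes 64 against 145 by library totals.

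Among the 5p arms, miR-27b-5p was higher in RMT1 by 1.44 ± 0.06 (limma adjusted p = 0.0146) and miR-27a-5p stood at 1.33 ± 0.56 (limma adjusted p = 0.190). The linear values of miR-27b-5p were 8.03 and 8.97 in EVu and EVd and 23.8 and 22.3 in RMT1. It thus passed the minimum only through RMT1, and its call carries no weight. miR-23b-5p was called lower, but it had 0 counts in both RMT1 libraries and its error is no measured spread, and DESeq2 on the recovered counts gave it an adjusted p of 0.125. The limma errors come from the spread of the RMT1 pair alone and hold no counting error of EVu or EVd. miR-27b-5p has few counts, and edgeR on the recovered counts gave it an adjusted p of 0.0889.

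The scaling decided the direction for the a cluster. When the libraries were scaled by their totals, miR-23a-3p was at -0.97 (limma adjusted p = 0.0291) and miR-27a-3p at -1.27 (limma adjusted p = 0.00682), and miR-27b-5p and miR-27a-5p also turned negative, at -0.050 and -0.15. Scaled so, miR-27b-3p was at -8.38, miR-23b-3p at -5.94 and miR-24-3p at 0.71, so these kept their direction. The median of all 278 names was -1.12 on the authors' scale and -2.54 by library totals. Subtracting this median takes out most of a change in scaling, so near agreement between the scalings was fixed in advance and checks no direction. Relative to it, miR-24-3p was at 3.32 and 3.25, miR-23a-3p at 1.64 and 1.58, and miR-27a-3p at 1.33 and 1.27. In the b cluster miR-23b-3p was at -3.35 and -3.40 and miR-27b-3p at -5.79 and -5.84. miR-23b-5p, with 0 counts in RMT1, was at -3.44 and -2.80.

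**Figure D4:**
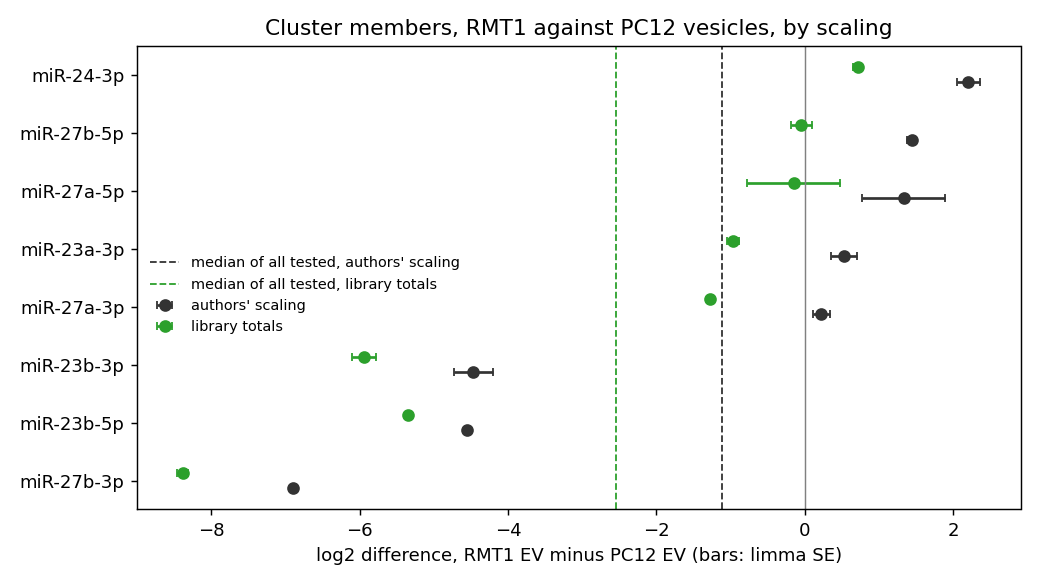
Difference between RMT1 and PC12 vesicles in log2 units for the 8 members tested, on the authors' scale (black) and by library totals (green); bars are limma standard errors and dashed lines the medians of all names tested. miR-24-3p lies right of 0 and miR-23b-3p and miR-27b-3p left of it under both scalings, while miR-23a-3p and miR-27a-3p change side.

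The microRNAs whose pattern over the 4 libraries was nearest to a member were found by the Euclidean distance of centred log2 values among the 277 other names. For miR-27b-3p these were miR-344b-5p (distance 0.117), miR-344a-3p (0.211) and miR-301b-3p (0.444). All 3 had 0 or 1 count in each RMT1 library, so their distance is set by that floor and not by a measured level: miR-344b-5p had 69, 80, 0 and 0, and miR-344a-3p had 175, 173, 1 and 1, in EVu, EVd, RMT1 EV 1 and RMT1 EV 2. The partner miR-23b-3p, which was counted in all 4 libraries, was at 2.46. For miR-27a-3p the nearest name was its own cluster partner miR-23a-3p (0.448), followed by miR-187-3p (0.479) and miR-664-3p (0.520), while miR-27b-3p was at 7.13. In the same order of libraries miR-187-3p had 27, 44, 41 and 37 counts and miR-664-3p 5, 12, 6 and 5. At such counts the order of these 3 names is not settled.

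Other microRNAs known for roles that miR-27 and miR-23 share were set beside them. Of 12 lipid metabolism microRNAs 11 were tested, of which 3 were higher in RMT1, 4 lower and 4 not called, where all names had 33.1% higher and 37.1% lower. Their median difference was -1.32 against -1.12 for all names, and -2.39 against -2.54 by library totals, so the side depends on the scaling. Among them miR-33-5p, which represses the cholesterol exporter Abca1, had 92, 129, 1 and 0 counts in EVu, EVd, RMT1 EV 1 and RMT1 EV 2, a pooled share ratio of PC12 over RMT1 of 432 with a lower limit of 76.8. miR-130a-3p was higher by 3.03 ± 0.12 (limma adjusted p = 0.0145). Of 12 vascular microRNAs 11 were tested, of which 4 were higher, 1 lower and 6 not called, beside the 70.1% of all names called in either direction. Their median was 1.09 against -1.12 for all names, and -0.40 against -2.54 by library totals. The endothelial miR-126a-3p was at -0.08 ± 0.11 (limma adjusted p = 0.590), and the 2 arms of miR-126a summed to 3035 and 2013 CPM in EVu and EVd and to 977 and 725 in RMT1. Names of smooth muscle and fibroblasts summed to 696 and 352 CPM in EVu and EVd and to 100.1 and 34.9 in RMT1, with miR-214-3p at 0 in all 4 libraries, and their part in the results was not tested.

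Between the PC12 libraries the main arms had a somewhat greater share in EVd. With 1 library a group there is no test and no replicate check. On the counts of the PC12 table, the log2 ratio of CPM of EVd over EVu, with 1 CPM added, was 0.72 for miR-27a-3p (0.61 to 0.83; 1293 and 1608 counts in EVu and EVd), and 0.49 for miR-23a-3p (0.38 to 0.60; 1355 and 1438 counts). For the b cluster it was 0.43 for miR-27b-3p (0.40 to 0.47; 14164 and 14459 counts) and 0.21 for miR-23b-3p (0.13 to 0.30; 2278 and 1996 counts). miR-24-3p, encoded by both clusters, was at 0.55 (0.47 to 0.63; 2409 and 2661 counts). Thus all 5 main arms had intervals above 0, as did 25% of the 472 names with a mean of at least 10 counts, whose median was 0.06. Intervals narrow as counts rise, and just 176 of these names had a mean of at least 100 counts. The 25% is therefore no like-for-like background for the abundant main arms.

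None of the 5 main arms reached a 2-fold difference, which 20.8% of the 472 names did in either direction. In the table of all 4 libraries miR-27a-3p came to 0.97 (0.84 to 1.10), near 2-fold, and the other main arms to between 0.26 and 0.55, against a median of -0.19 over 246 names. There too all 5 main arms had intervals above 0, against 25.6% of the names, and none reached 2-fold, against 23.6%. The 25.6% likewise includes names with far fewer counts than the main arms. The EVu count of miR-27a-3p there was 59.2% of that in the PC12 table and its EVd count 72.1%, whereas for miR-27b-3p the tables lay within 96.0% and 98.9%. The a share of both pairs was greater in EVd than in EVu in both tables.

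Of the 5p arms in the PC12 table, miR-23a-5p had a ratio of 1.01 (0.60 to 1.43) from 84 and 128 counts, but 3 and 0 counts in the other table. miR-24-1-5p was at -1.36 (-3.95 to 0.45) and the other 4 had intervals that likewise included 0, so no difference was detectable for these at this depth. The blood and liver marker names summed to 1449 CPM in EVu against 85.7 in EVd, a difference between these PC12 libraries whose part in the ratios was not tested.

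**Figure D5:**
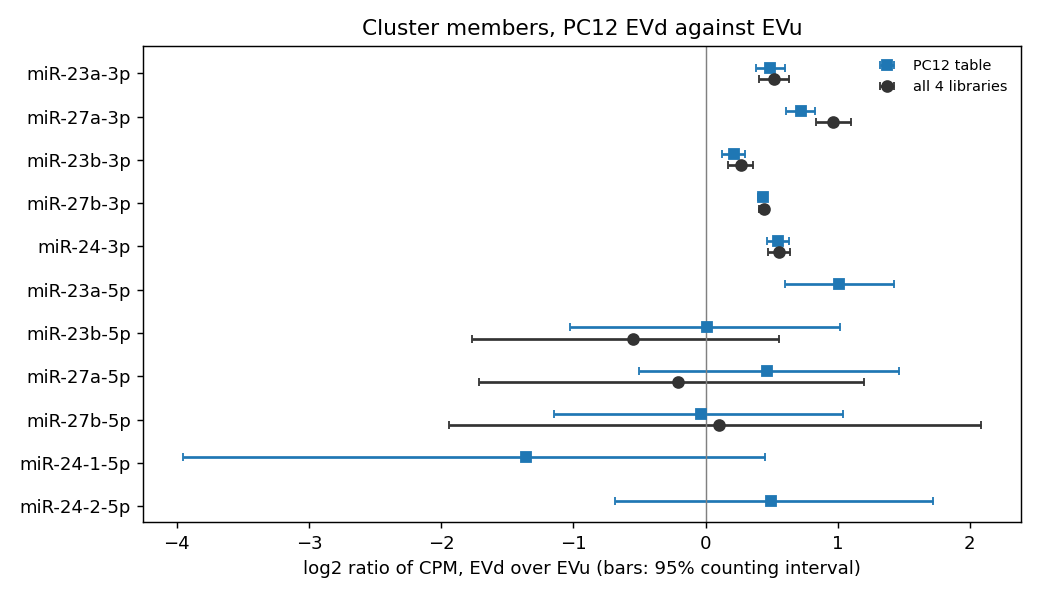
Log2 ratio of CPM in PC12 EVd over EVu for the 11 members in the PC12 table (blue squares) and in the table of all 4 libraries (black circles), with 95% counting intervals; members at 0 counts in 1 or both libraries of the second table have no circle. The 5 main arms lie between 0.21 and 0.97, and only the 5p arms have intervals that cross 0.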

How the data were processed

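The authors deposited raw counts for PC12 EVu and EVd (per the file headers) and log2 normalized values for all 4 libraries, where 0 means nothing counted. On the linear scale 100% of the deposited log2 values were whole multiples of 1 step per library (tolerance 0.1), so counts were recovered by division. The submitters' processing notes name the build mm10, a mouse build, while names are rat; aligner and counter are unnamed, and how the values were scaled is not given in the sources used here. Shares are of the library total. RMT1 was compared with PC12 by limma 3.58.1 with trend (R 4.3.3) on the log2 values, 3 groups, RMT1 minus the mean of EVu and EVd, Benjamini-Hochberg over 278 names with a mean linear value of at least 10, threshold 0.05; the paralog ratios were fitted likewise over 55 pairs. EVd over EVu used CPM from the PC12 counts, with no test. Alternatives used edgeR 4.0.16 and DESeq2 1.42.0 on recovered counts, other scalings, filters, and libraries left out. The fits were tested on simulated data. Names printed by a set rule were all members, miR-3074, names sharing a seed and the 3 nearest patterns of miR-27a-3p and miR-27b-3p. Other names came from the lists, the markers, the paralog pairs and the hairpins near miR-23a. Those printed singly from the lists are examples with no rule set for them. The members and lists were chosen with earlier results of these data known. RefSeq (GRCr8) gave sequences for 10 of the 11 member names, the other being miR-23a-5p.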

Additional observations from a re-analysis of the deposited data

How the results depend on the processing

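No paired analysis was possible because each PC12 group has 1 library, so the groups share fewer than 2 replicate numbers. Under the alternatives 144 values of the main results were kept, 12 moved, 3 reversed, 1 grew stronger and 1 weaker. Of the other values, for the 5p arms and the PC12 shares, 31 were kept, 8 moved, 5 reversed and 3 grew weaker. A change of filter cannot move the log2 differences themselves, so values kept under it check no direction. Fits were judged by direction and call, counts of names by their size, and EVd over EVu and the a shares by the counting interval. Those kept include every alternative for miR-27b-3p and miR-23b-3p between the lines and for both 3p paralog ratios. By library totals miR-23a-3p and miR-27a-3p reversed to -0.97 and -1.27, and miR-27b-5p and miR-27a-5p to -0.050 and -0.15. With edgeR miR-23a-3p was called, at 0.32 (adjusted p = 0.0304). Leaving out 1 library gave -0.29 to 0.73 for miR-27a-3p (-0.29 without EVu), 0.24 to 0.81 for miR-23a-3p, and 1.90 to 2.51 for miR-24-3p, which lost its call without RMT1 EV 2 (2.07, adjusted p = 0.0544). It gave 53 to 85 names called higher (56 without RMT1 EV 1) and 89 to 99 lower; where 1 RMT1 library was dropped, EVu and EVd formed 1 group and the lone library was assumed to vary like them. The range was 6.86 to 7.38 for the miR-27 ratio and 4.86 to 5.12 for the miR-23 ratio. With PC12 table counts these ratios differed by 6.53, below that range, and by 5.12. Without a filter 192 names were lower, of 440. miR-27a-5p to miR-27b-5p reversed to 0.33 without RMT1 EV 2, to 0.052 without EVu (-0.27 without EVd) and to 0.44 with PC12 table counts, the last an alternative chosen after seeing the data. In PC12 table counts the a share was 8.37% and 10.01% (miR-27a-3p) and 37.3% and 41.9% (miR-23a-3p) in EVu and EVd. EVd over EVu of miR-27a-3p was 0.97 in the table of all 4 libraries, where 26 of 246 names were at least 2-fold higher; of names with a mean of at least 100 counts, 24 of 176 were higher and 13 lower, and without a filter 54 of 528 were lower. The causes were not tested. The 5p arms are limited by depth.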

Other observations

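The RefSeq annotation of GRCr8 places Mir181c and Mir181d within 30 kb of the miR-23a hairpin. They were chosen from the annotation after the data were seen. miR-181c-5p had 75, 32, 3 and 0 counts in EVu, EVd, RMT1 EV 1 and RMT1 EV 2, and its pooled share was 69.8-fold higher in PC12 (exact binomial 95% interval 23.2 to 344). miR-181d-5p had 90, 51, 1 and 0 counts, with a pooled share 276-fold higher in PC12 and an interval with a lower limit of 48.7. On the authors' scale miR-181c-5p was at -4.96 ± 1.46 (limma adjusted p = 0.130), not called. miR-181d-5p was at -6.22 ± 0.56 (limma adjusted p = 0.0320). Both passed the minimum only through PC12, so a difference in this direction was favoured in advance and the call carries no weight. The a cluster members beside them differed by 1.95-fold and 2.45-fold in the same direction by share. On the authors' scale, however, these a cluster members stood at 0.53 and 0.22, higher in RMT1 and not called.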
